A study of Arabidopsis thaliana with 123 samples.

Results

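Seeds of the Arabidopsis mutant abi3-6 held a large set of transcripts that wild-type Col-0 seeds nearly lacked at every stage sampled, and these transcripts are followed here through the other lines and stages. The members are the 200 genes, of 37336 counted, with the largest log2 ratio of the mean in dry abi3-6 seed over the largest mean of any of the 13 Col-0 groups, with 1 CPM added to both. CPM is the usual depth-scaled unit, a gene's count relative to its library's total count. Because dry abi3-6 and all Col-0 libraries chose the members, values in those libraries describe the choice and carry no test.

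The series holds 123 RNA sequencing libraries of whole seeds dissected from siliques at 12 to 24 days after pollination (DAP) and at the dry stage, labelled 26 days and later. The labels name 2 experimental rounds, batch A (31 libraries) and batch B (92 libraries). Wild-type Col-0 had 38 libraries in both batches, from 12 DAP on in batch A and from 18 DAP on in batch B. All libraries are labelled as accession Col-0. The line abi3-6 had 14 libraries, with 2 per stage in batch A (16, 18, 20 and 22 DAP) and 3 per stage in batch B (24 DAP and dry). Batch B further comprised 14 abi3-12 libraries, 15 of the double mutant abi3-12 dog1-4, 15 of the triple mutant abi3-12 dog1-4 cyp707a2 and 12 of dog1-4. A further 5 lines were sampled only when dry, with 3 libraries each, namely aba2-1, abi3-12 aba2-1, dog1-4 aba2-1, abi3-12 dog1-4 aba2-1 and L2-1, a transgenic line labelled as Col-0 with DOG1 of Cvi. The labels call the mutants knock-outs, and they describe replicates as pooled seeds of several siliques, so p-values measure the spread between such libraries. In whole seeds, fewer cells of a type and less RNA per cell cannot be told apart.

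ABI3 is a B3-domain transcription factor that switches on storage protein, late embryogenesis and desiccation tolerance genes in maturing seeds. Plants with the strong allele abi3-6 make green, desiccation-intolerant seeds, whereas abi3-12 is a weak allele. DOG1 sets the depth of dormancy, ABA2 acts in the synthesis of the hormone abscisic acid (ABA), and CYP707A2 breaks ABA down. Among the members were most of the genes of the ER body, a defence compartment of seedling and root cells that stores the beta-glucosidase PYK10 (AT3G09260) in large amounts. NAI1 (AT2G22770) is the basic helix-loop-helix factor needed to form these bodies, NAI2 (AT3G15950) a protein that shapes them, and PBP1 and the jacalin-related lectins bind PYK10 when cells break.

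Promoter windows are shown for 3 members of this compartment, because genes of the ER body stood near the top of the ranking. Each window is the 250 bases before the start of the gene model in RefSeq's TAIR10.1 assembly, printed 5′ to 3′ on the gene's strand. Capitals mark matches, on either strand, to the G-box CACGTG or to the ABA response element core ACGTGG, which overlap in 1 place.
NAI2 (minus strand, chr3:5402654-5402903): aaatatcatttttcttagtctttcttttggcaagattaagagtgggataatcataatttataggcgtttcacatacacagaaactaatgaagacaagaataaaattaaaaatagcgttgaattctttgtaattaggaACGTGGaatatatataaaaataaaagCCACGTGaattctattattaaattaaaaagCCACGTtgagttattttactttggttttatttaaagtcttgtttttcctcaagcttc
PYK10 (minus strand, chr3:2843782-2844031): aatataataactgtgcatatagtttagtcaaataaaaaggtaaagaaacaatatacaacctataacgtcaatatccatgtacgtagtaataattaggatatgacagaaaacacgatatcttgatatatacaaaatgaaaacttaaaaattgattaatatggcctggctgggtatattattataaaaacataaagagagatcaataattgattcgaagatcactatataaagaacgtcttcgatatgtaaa
BGLU21 (minus strand, chr1:24703167-24703416): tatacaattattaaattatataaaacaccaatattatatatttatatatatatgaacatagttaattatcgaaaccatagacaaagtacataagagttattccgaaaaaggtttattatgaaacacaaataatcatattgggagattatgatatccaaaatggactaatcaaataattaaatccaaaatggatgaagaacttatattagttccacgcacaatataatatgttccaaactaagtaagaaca
The NAI2 window held 1 G-box and 3 ABA response element cores. The windows of PYK10 and of BGLU21 (AT1G66270), a close relative of PYK10, held neither of these, nor the RY element CATGCA that B3 factors such as ABI3 bind, nor GATAAG or TTGACC. No match says only that these letters are not in this window. Over the 198 members with such a window, 9.09% held CACGTG, 11.6% ACGTGG, 10.6% CATGCA, 14.1% GATAAG (the I-box of light-regulated genes) and 9.09% TTGACC (the W-box core). Among all 27437 windows the shares were 6.49%, 8.23%, 8.43%, 12.3% and 12.2%.

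The members' level in dry abi3-6 seed ranged from 13.1 to 3751.8 CPM. In Col-0, 28 members were at 0 in every group mean, 113 never reached a mean of 1 CPM, and 18 exceeded 10 CPM somewhere. Of the members with a count in Col-0, 73 had their largest Col-0 mean at 12 DAP, the youngest stage, and 32 at 24 DAP of batch B. BGLU21 led the ranking with 713 ± 34.9 CPM in dry abi3-6 (SD, n = 3). Next came AT4G23670, annotated as a polyketide cyclase family protein, with 898 ± 185 CPM, the lipid transfer protein LP1 with 1055.7 ± 128 CPM and PYK10 with 3751.8 ± 130 CPM. Around the threshold, the last member inside was CYP79B3, an enzyme that makes indole glucosinolate precursors, at a log2 ratio of 3.807, and the first outside were AT5G61520 at 3.807 and AT5G65990 at 3.806.

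By their RefSeq descriptions, 23 members belong to photosynthesis and the plastid, 18 to the cell wall, 12 to glucosinolate or flavonoid synthesis, 11 to jacalins and other lectins, 10 to transporters, 9 to lipid transfer proteins and lipases, 9 to transcription factors, 8 to beta-glucosidases and other glycosyl hydrolases and 8 to proteases and their inhibitors. Smaller classes held 10 members together, and 82 had other descriptions. The photosynthesis members included small subunits of Rubisco (RBCS1B, RBCS2B, RBCS3B), the light-dependent chlorophyll synthesis enzymes PORA, PORB and POR C, and NdhL, NdhM, NdhN, NdhO, PnsB1, PnsB2 and PnsB3 of the plastid NADH dehydrogenase-like complex. The glucosinolate and flavonoid class held the anthocyanin regulator PAP1, the pigment enzymes DFR and LDOX, the myrosinase TGG2 and the nitrile specifier NSP1. Other members act in starch synthesis (APL3, APL4, GBSS1), in proline synthesis (P5CS1) and in responses to drought and cold (RD22, DI21, COR15A, SAG21).

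Members also lay side by side in the genome. Of 198 members on the map, 23 (11.6%) had another member as a direct neighbour, against 1.42% of all 27444 genes, and 38 (19.2%) had one within 3 genes, against 4.01%. The longest run held 7 members among 12 genes of chromosome 3, from position 5554197 to 5595912 (AHP4, AT3G16370, NSP1, PBP1, JAL31, JAL33 and JAL34). RBCS3B, RBCS2B and RBCS1B formed another run, and BGLU21 and BGLU22 lay next to each other on chromosome 1. For 11 members over 10% of their 50-base stretches occur in another gene, the 3 RBCS genes and NSP1 among them, so reads could be split between copies. A further limit is strand overlap, since 45 members are overlapped by a gene on the other strand, although the labels describe strand-specific libraries.

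The share of library counts taken by the members summed to 4.12% in dry abi3-6 (libraries 3.81% to 4.36%), as the plot of summed shares shows. It lay between 0.0186% and 0.0635% in the Col-0 group means. The share fell between these levels in several lines that took no part in the choice. It was 2.22% in dry abi3-12 dog1-4, 2.56% in dry abi3-12 dog1-4 aba2-1 and 0.667% in dry abi3-12 aba2-1, but 0.0998% in dry abi3-12, 0.123% in dry dog1-4, 0.259% in dry dog1-4 aba2-1 and 0.0734% in dry aba2-1. L2-1, at 0.0213%, lay within the Col-0 range.

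**Figure D1:**
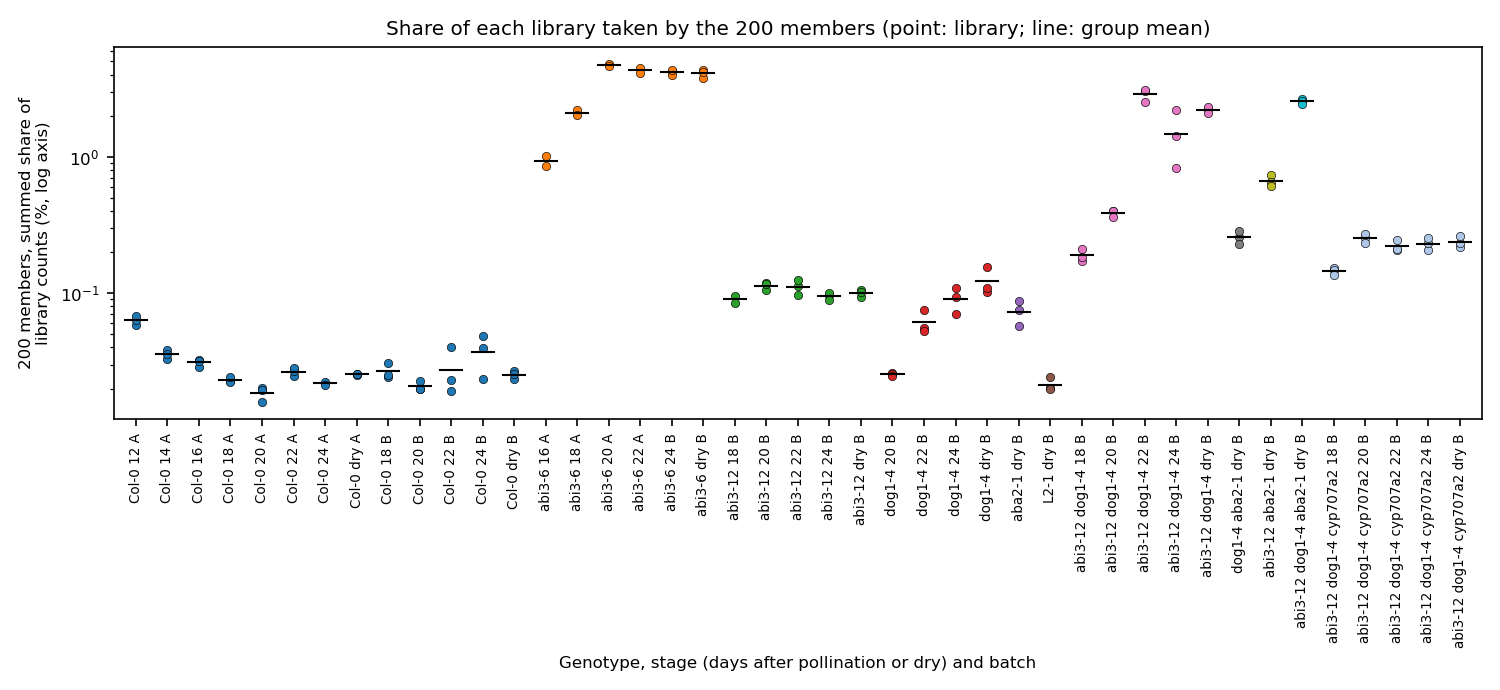
Summed share of library counts taken by the 200 members (log axis, %), 1 point per library and a line at the mean of each of the 43 groups of genotype, stage and batch. Dry abi3-6 lies at 4.12%, dry abi3-12 dog1-4 at 2.22%, dry abi3-12 at 0.0998%, and the Col-0 groups at 0.0186% to 0.0635%.

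Library totals ran from 2577281 to 20277489 counts (median 11678153). Libraries agreed least within groups in abi3-12 dog1-4 at 24 DAP, where the member share was 0.823%, 1.41% and 2.20% in replicates 1, 2 and 3, replicate 1 being the smallest library of all. The summed level of 12 seed maturation genes was 5002.0 to 9127.1 CPM in dry abi3-6 and 73038.4 to 80237.9 CPM in dry Col-0. That of 8 endosperm genes was 2092.9 to 3147.3 CPM and 19517.1 to 21326.0 CPM, with 4 and 5 of them at 0. Genes of floral organ identity, a check for silique tissue, were all at 0 in dry abi3-6 (7 of 7). In abi3-6 at 16 DAP they summed to 55.9 to 61.7 CPM, and all 5 tested fell to 18 DAP. The 5 fruit wall and valve margin genes summed to 25.8 to 27.9 CPM in dry abi3-6, with 4 of them at 0. In dry Col-0 that sum was 0 to 0.157 CPM. Whether silique tissue contributed to the members' values was not tested. Of 11 light harvesting genes none was a member, and Col-0 held them at 12 DAP (LHCA1 at 133 CPM). They summed to 7371.6 to 10033.4 CPM in dry abi3-6 and 73.5 to 96.6 CPM in dry Col-0. RNA of DOG1 was at 0.87 to 1.37 CPM in dry dog1-4 against 21.7 to 34.9 CPM in dry Col-0, whereas ABI3 RNA persisted in both abi3 alleles (114 to 120 CPM in dry abi3-12, 169 to 211 CPM in dry abi3-6, 171 to 186 CPM in dry Col-0). CYP707A2 RNA was at 0 to 0.813 CPM in abi3-12 dog1-4 cyp707a2 at 18 DAP against 9.45 to 27.4 CPM in abi3-12 dog1-4. At 22 DAP it was at 13.3 to 17.1 CPM against 6.81 to 12.0 CPM, and at 24 DAP at 12.8 to 14.8 CPM against 7.05 to 7.97 CPM. In dry seed it was at 9.96 to 11.4 CPM against 7.12 to 7.78 CPM. From 22 DAP on, the libraries therefore do not show the mutation through the amount of RNA.

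During the abi3-6 course most members were detected from the start but well below their dry level. At 16 DAP 17 of the 200 were at 0 and 101 were at 10% or more of the dry level. Of all 200, 29 had reached at least 50% of their dry level at 16 DAP, 79 stood at that level at 18 DAP, 154 at 20 DAP and 199 at 22 DAP. Among the 10436 genes at least as abundant in dry abi3-6 as the lowest member (13.1 CPM), 79.9% were already at 50% of the dry level at 16 DAP. At 10% or more of it were 97.7%. The share at 50% was 88.8% at 18 DAP, 92.5% at 20 DAP and 99.8% at 22 DAP, so by 22 DAP the members did not stand apart. The classes differed in timing. Of 23 photosynthesis members, 15 first passed 50% at 20 DAP and none at 16 DAP, whereas 7 of the 12 glucosinolate and flavonoid members did so at 18 DAP and 3 at 16 DAP.

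In abi3-6 at 16 DAP the libraries held 278 and 211 CPM of PYK10. By 18 DAP they held 1766.6 and 1671.5 CPM, and by 20 DAP 6961.1 and 7481.0 CPM. Libraries of 22 DAP held 4512.5 and 4239.6 CPM, and those of dry seed 3896.7, 3643.7 and 3714.9 CPM. The 3 Col-0 dry libraries of batch B held 0.55, 0 and 0.479 CPM. The rises from 16 to 18 and from 18 to 20 DAP were of 2.53 ± 0.43 (log2 fold change ± SE, edgeR adjusted p = 0.000228) and 1.85 ± 0.42 (adjusted p = 0.00261), while the difference from 20 to 22 DAP did not pass (log2 -0.52, adjusted p = 0.32). NAI1, the regulator of ER body formation, was already at 25.1 and 26.9 CPM at 16 DAP, close to its 19.6, 29.7 and 25.3 CPM in dry seed, peaked at 67.6 and 91.5 CPM at 20 DAP, and fell by 1.45 on the log2 scale to 22 DAP (adjusted p = 1.64e-05). Of the 11 tested genes in a list of 12 ER body genes, 10 rose from 16 to 18 DAP and 11 from 18 to 20 DAP (19.1% and 20.5% of all genes). From 20 to 22 DAP 2 rose and 8 fell (25.3% and 21.9% of all genes). Of the 12 genes 10 were members. Because members were chosen by a high level in dry abi3-6, rises towards that level are in part set by the choice. The same holds for the counts below.

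Over all members tested in batch A (198), 133 rose and 8 fell from 16 to 18 DAP by edgeR's quasi-likelihood test at an adjusted p under 0.05, the threshold used throughout. Of all 20414 genes 19.1% rose and 24.9% fell there, 44.0% in either direction. From 18 to 20 DAP 141 members rose and 19 fell (20.5% and 20.2% of all genes, 40.7% in either direction). From 20 to 22 DAP 79 rose and 53 fell (25.3% and 21.9% of all genes, 47.2% in either direction), and the members' median change was 0.15 on the log2 scale. The members that fell first include BGLU18 (AT1G52400), the beta-glucosidase of wound-induced ER bodies, which also releases ABA from its glucose ester. For BGLU18 the 16 DAP libraries held 368 and 310 CPM, those of 18 DAP 279 and 234 CPM and those of 20 DAP 70.9 and 83.4 CPM, a fall from 18 to 20 DAP of log2 -1.96 ± 0.18 (edgeR adjusted p = 9.5e-06). Its course was the reverse of that of PYK10 over these days. HB1, a non-symbiotic haemoglobin, fell from 182 ± 0.957 to 37.2 ± 10.7 CPM between 16 and 18 DAP (log2 -2.56 ± 0.37, adjusted p = 1e-05, n = 2 and 2).

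A late group rose from 20 to 22 DAP. ELIP1, an early light-induced chlorophyll-binding protein, went from 199 and 68.6 CPM to 1651.0 and 1233.5 CPM (log2 3.63 ± 0.37, edgeR adjusted p = 2e-08). IGMT4, a methyltransferase of indole glucosinolates, rose from 5.07 ± 2.29 to 91.4 ± 17.6 CPM (log2 4.41 ± 0.37, adjusted p = 3.72e-07). The MYB-type factor CPL3 rose from 0.813 ± 1.15 to 13.1 ± 3.81 CPM in the same interval (adjusted p = 0.000356). Before that, CPL3 had fallen from 3.44 ± 0.792 CPM at 18 DAP (log2 -2.4 ± 0.77, edgeR adjusted p = 0.0264). Wall and lipid members moved in both directions, with 9 of 18 wall members higher and 7 lower, and 4 of 9 lipid transfer and lipase members higher and 3 lower (25.3% and 21.9% of all genes). Among those lower, XTH31, a xyloglucan endotransglucosylase of cell wall loosening, went from 126 and 133 CPM to 18.8 and 20.1 CPM (log2 -2.53 ± 0.18, adjusted p = 3.29e-07), and the GDSL lipase GLL22 from 532 ± 14.0 to 113 ± 2.31 CPM (log2 -2.03 ± 0.23, adjusted p = 1.75e-07). The steps from 22 DAP to later stages cross from batch A to batch B and were not tested, since batch and stage cannot be told apart there.

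**Figure D2:**
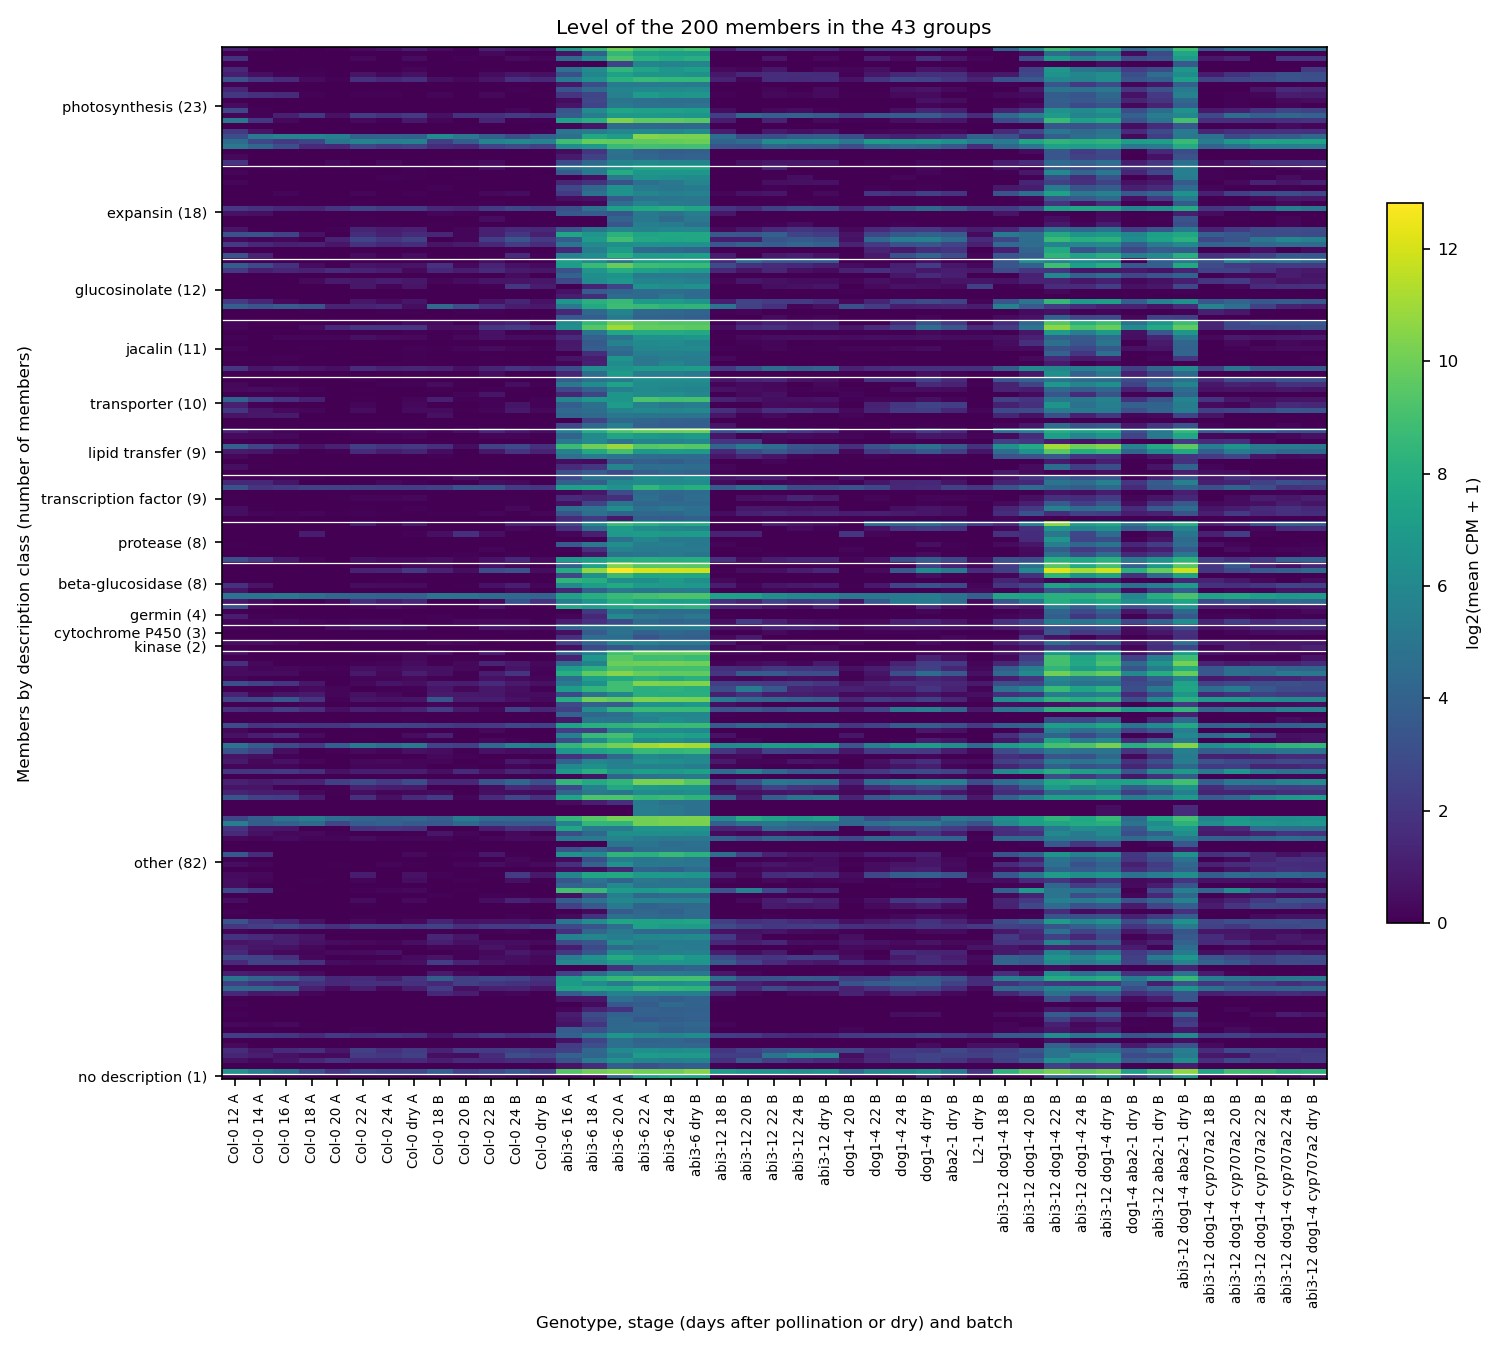
Mean level of each of the 200 members (rows, grouped by description class) in each of the 43 groups (columns), as log2(mean CPM + 1). High levels fill the abi3-6 columns from 20 DAP on and recur in abi3-12 dog1-4 from 22 DAP and in dry abi3-12 dog1-4 aba2-1, while Col-0, L2-1 and abi3-12 stay near 0 for most members.

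The strong allele was set against the weak one at 24 DAP, where the abi3-6 libraries of batch B did not enter the choice. All 200 members were higher in abi3-6 than in abi3-12 and none was lower (unadjusted p under 0.05 also for 200), where 39.9% of all 20912 genes were higher and 33.0% lower, 72.9% in either direction. The members' median log2 fold change was 8.51, against 0.11 over all genes. In abi3-12 at 24 DAP 86 members had no count. The sizes of their fold changes, and with them the median, may depend on the prior count, a small count that edgeR adds. Libraries did not overlap for 198 members, but the share of all genes without overlap was not counted. These 24 DAP libraries share the line with the dry libraries of the choice, and in them all 200 members stood at 50% or more of their dry level. So did 99.9% of the 10436 genes at least as abundant in dry abi3-6 as the lowest member. The high side of this comparison was therefore largely set by the choice. What it adds is the low level in abi3-12, which took no part in the choice. PORB was at 780, 793 and 827 CPM in abi3-6 and at 0 in all 3 abi3-12 libraries, which puts it at least 1853.6-fold higher when 3 counts per library are taken as the floor. AT4G23670 was at least 1896.5-fold and BGLU21 at least 1704.3-fold higher on the same floor.

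A pair of members with the symbol AT14A, AT3G28290 and AT3G28300, stands apart. All their 50-base stretches are shared, and they carried the same count in all 123 libraries, of which 5 were above 0. In abi3-6 the dry libraries held 0, 0 and 81.7 CPM of each, those of 24 DAP 0, 98.5 and 0 CPM, and those of 22 DAP 85.2 and 0 CPM. Their place in the list therefore rests on 1 dry library, and their counts cannot be assigned to either copy. Both also count among the 200 members called higher than in abi3-12 at 24 DAP, though only 1 abi3-6 library held them there. With single libraries left out, 197 to 200 members were called higher in that comparison. They were the only members at 0 in any dry abi3-6 library.

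Most members were higher where dog1-4 was added to the weak allele. In dry seed, 183 of 200 were higher in abi3-12 dog1-4 than in abi3-12 and 1 was lower (38.8% and 30.4% of all 20912 genes, 69.2% in either direction), with a median log2 fold change of 5.68 against 0.14. At 22 DAP 175 were higher and 2 lower (36.8% and 32.9% of all genes, 69.7% in either direction), with a median of 5.34 against 0.04. In abi3-12, 74 members had no count in dry seed and 73 had none at 22 DAP, so the sizes of these medians may depend on the prior count. Libraries did not overlap for 182 members higher in dry seed and 173 at 22 DAP, but the share of all genes without overlap was not counted. All 23 photosynthesis members were tested and 22 rose in dry seed, as did 11 of 11 lectins, 18 of 18 wall proteins, 8 of 8 proteases, 8 of 9 transcription factors and 8 of 12 glucosinolate and flavonoid genes. Of tested genes of these classes that were not members, 139 of 200, 42 of 96, 147 of 372, 163 of 369, 353 of 1068 and 18 of 45 rose. The spread of these fold changes, with those of the other comparisons, is drawn in the plot of members against all genes.

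**Figure D3:**
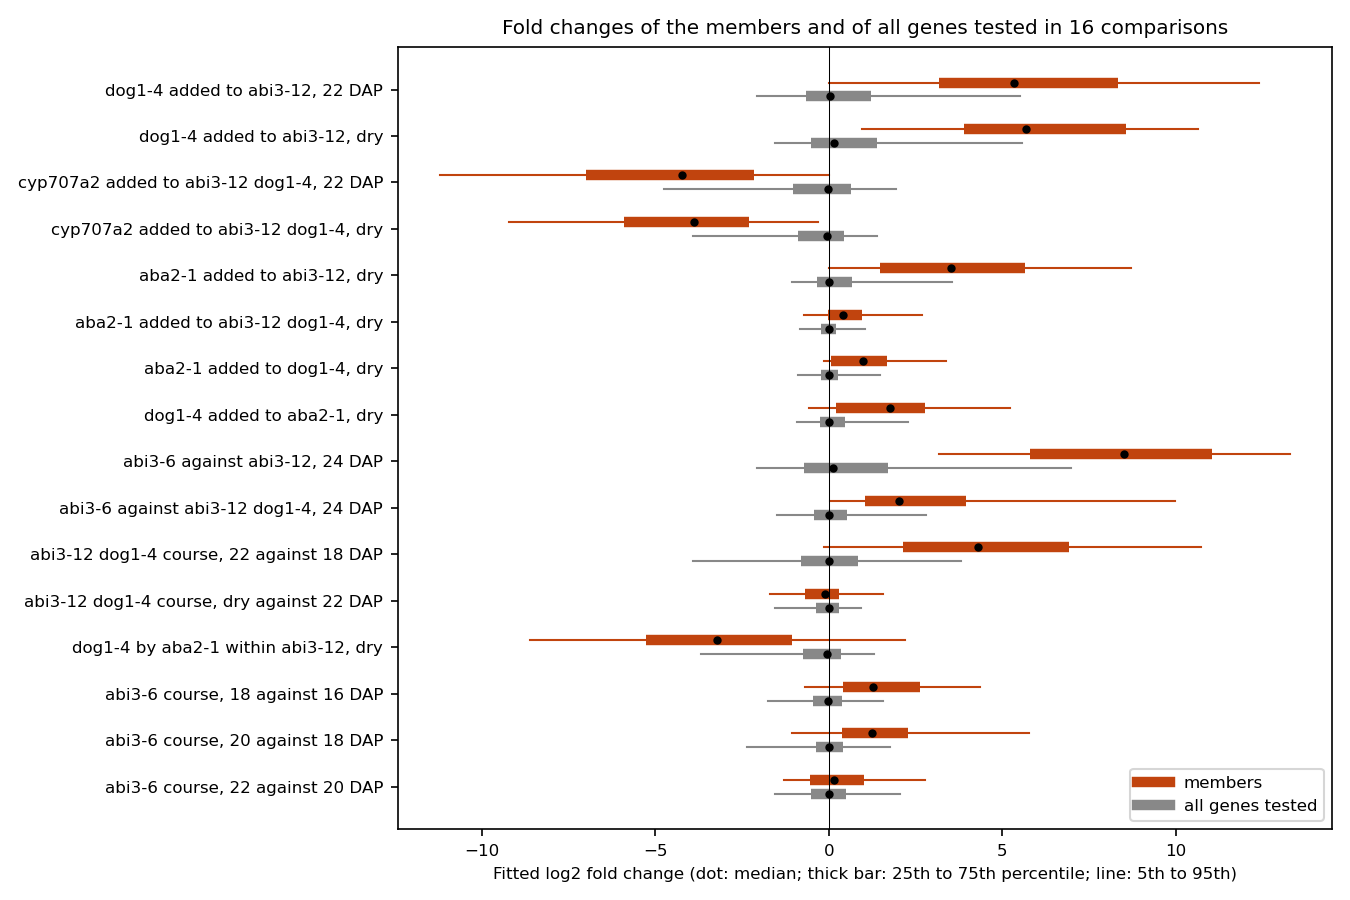
Fitted log2 fold changes of the members (red) and of all genes tested (grey) in the 16 comparisons, with the median as a dot, the 25th to 75th percentiles as a thick bar and the 5th to 95th as a line. The members' median is 5.68 when dog1-4 is added to abi3-12 in dry seed and -3.87 when cyp707a2 is then added, while the medians of all genes stay between -0.05 and 0.14. For members without a count in a group the size depends on edgeR's prior count.

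PYK10 was at 1.13, 1.79 and 2.27 CPM in dry abi3-12 and at 3780.8, 4143.7 and 3450.9 CPM in dry abi3-12 dog1-4. The groups were far apart, and the double mutant's libraries lay around those of dry abi3-6 given above (log2 fold change between the lines 10.64 ± 1.01, edgeR adjusted p = 1.49e-14). NAI1 was at 0.942, 0.569 and 0.812 CPM against 29.4, 30.4 and 28.4 CPM (log2 4.73 ± 0.36, adjusted p = 8.96e-17). NAI2 was at 5.59, 8.38 and 7.31 CPM against 824, 992 and 878 CPM, again with no overlap (log2 6.52 ± 0.44, adjusted p = 6.35e-21). Of the 12 genes of the ER body list, 10 were members and 11 were tested, and all 11 were higher at both stages. Other lists moved with it in dry seed. All 11 light harvesting genes were higher (median log2 fold change 5.46), as were all 7 tested xylem genes (6.51), 6 of 6 phloem genes (4.88, with 1 member, PP2-A1, among them) and 4 of 4 tested trichome genes (5.16). Summed levels in abi3-12 dog1-4 against abi3-12 were 944 to 989 CPM against 73.0 to 85.5 CPM for light harvesting, 21.5 to 22.8 against 0.65 to 0.976 CPM for xylem, 255 to 271 against 12.7 to 14.9 CPM for phloem and 13.6 to 15.7 against 0.44 to 0.814 CPM for trichomes. The xylem regulators VND6 and VND7 and the trichome regulator GL1 were at 0 in both lines. In dry abi3-12, 7 of the 9 xylem genes and 3 of the 5 trichome genes had no count, so the sizes of their medians may depend on the prior count. Of tested genes, 5 of 8 were higher for the stomatal lineage, 2 of 3 for myrosin cells, 2 of 3 for the root cap, 3 of 8 for root hairs, 3 of 8 for the seed coat, 2 of 4 for the shoot meristem, 1 of 6 for the endodermis, 1 of 3 for the fruit wall and 0 of 5 for floral identity, with none lower. Among all genes 38.8% were higher and 30.4% lower, so several of these lists did not stand above the share of all genes. Of 5 endosperm genes 1 was higher and 2 were lower. The part of other cell types in the members' values was not tested.

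MEB2, the tested ER body gene that was no member, reached a mean of 23.6 CPM at 20 DAP in abi3-6. The summed level of the list was 6090.6 to 7160.0 CPM in dry abi3-12 dog1-4, 6581.0 to 6689.5 CPM in dry abi3-6, and 9.23 to 12.9 CPM in dry abi3-12.

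AT5G26260, a TRAF-domain family protein, was at 0 in all dry abi3-12 libraries and at 389, 464 and 364 CPM in abi3-12 dog1-4, at least 1799.6-fold higher. BGLU22 was at least 749-fold and the lectin JAL33 at least 556-fold higher in dry seed. RBCS3B, a small subunit of Rubisco, was at 2.58, 3.17 and 3.17 CPM against 270, 249 and 209 CPM (log2 5.88 ± 0.35, edgeR adjusted p = 1.35e-23). GASA4, a gibberellin-regulated peptide, was at 0.817, 0.732 and 1.14 CPM against 552, 598 and 548 CPM (log2 8.82 ± 0.55, adjusted p = 3.11e-22). Both groups were clear of each other for all of these. The amount of seed maturation RNA moved the other way, since all 12 genes of that list were lower in abi3-12 dog1-4 at both stages. Their summed level in dry seed was 11698.3 to 18793.1 CPM against 81118.3 to 85199.2 CPM in abi3-12. The part of this shift in the members' values was not tested.

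**Figure D4:**
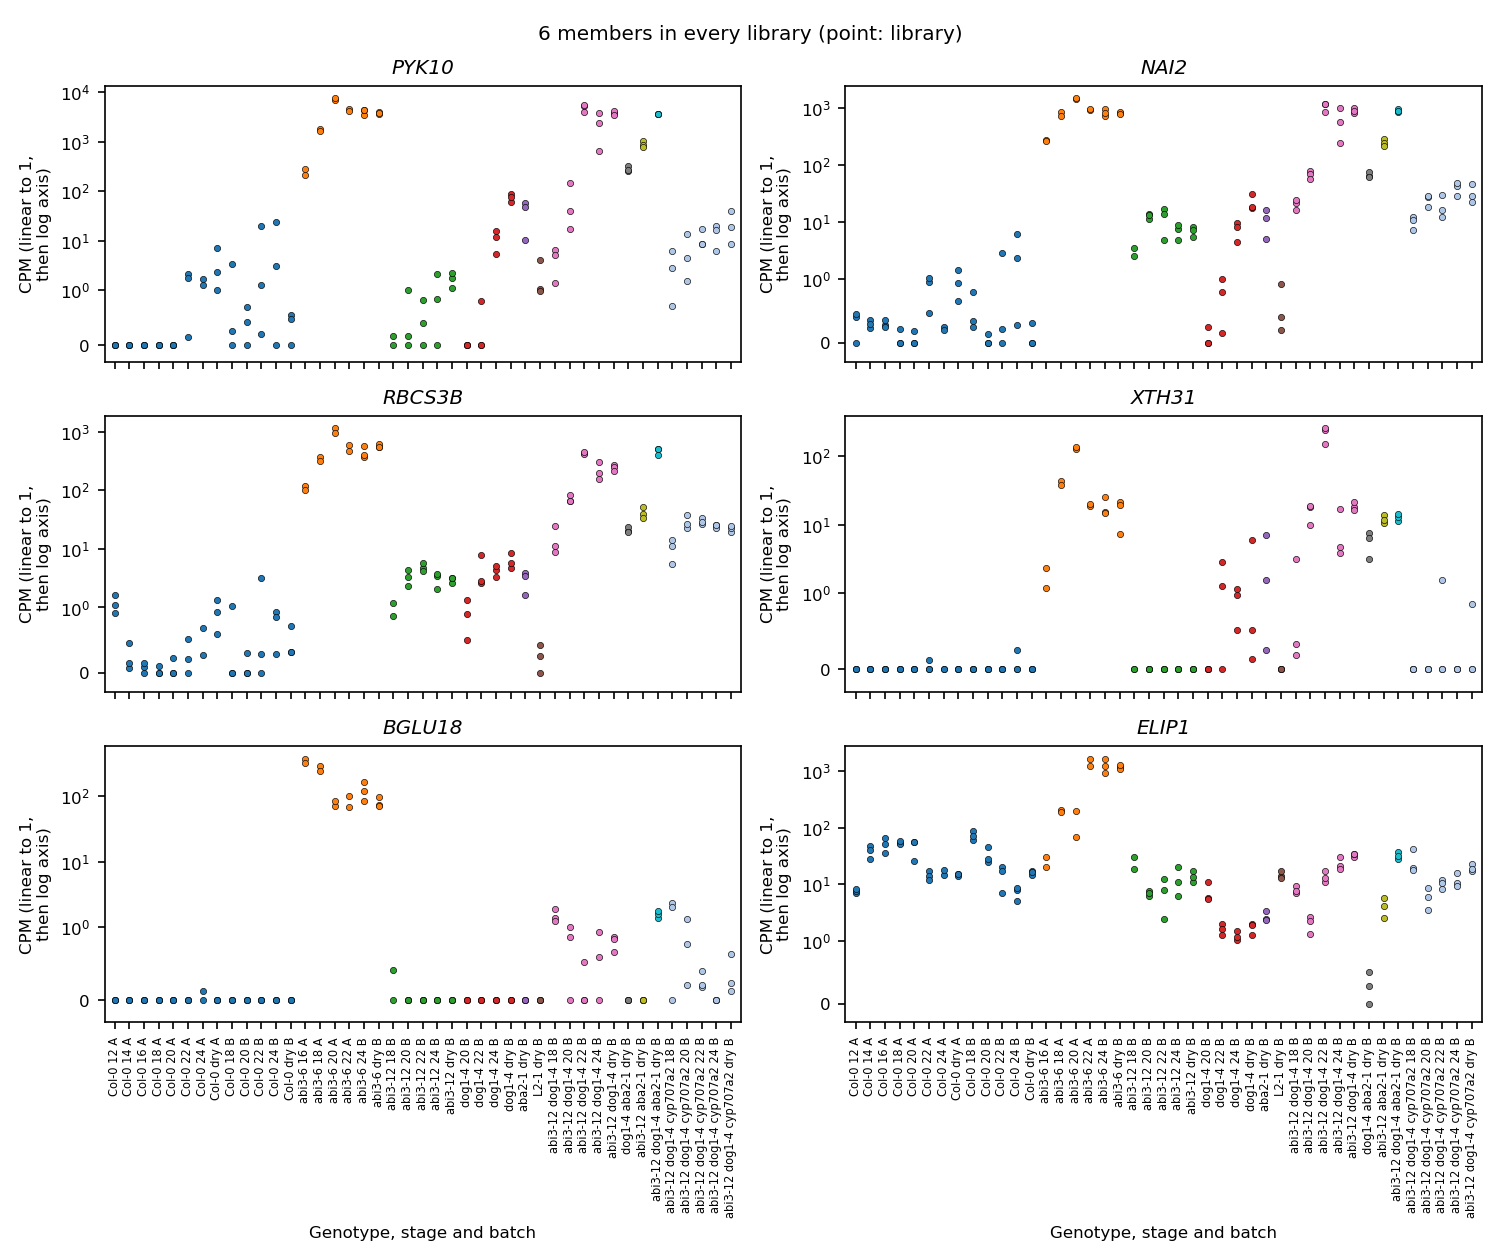
Level of 6 members in every library (CPM, linear up to 1 and log above), 1 point per library, by genotype, stage and batch. PYK10, NAI2 and RBCS3B are high in abi3-6 and in abi3-12 dog1-4 from 22 DAP, XTH31 is highest in abi3-12 dog1-4 at 22 DAP, and BGLU18 and ELIP1 are high in abi3-6.

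In the double mutant the largest step between sampled stages lay between 20 and 22 DAP. The members took 0.189% of counts in its 18 DAP libraries on average, 0.387% at 20 DAP, then 2.89% (22 DAP), 1.48% (24 DAP) and 2.22% (dry). From 18 to 22 DAP 167 members rose and 6 fell (35.4% and 35.1% of all genes, 70.4% in either direction), with a median log2 fold change of 4.31 against 0.00. PYK10 went from 6.49, 1.43 and 5.27 CPM to 5196.0, 5429.4 and 4002.9 CPM (log2 9.6 ± 0.95, edgeR adjusted p = 5.57e-14). In abi3-6 the same gene stood at 1671.5 CPM or more by 18 DAP in both libraries, in the other batch. From 22 DAP to dry seed 20 members rose and 40 fell (17.9% and 15.6% of all genes, 33.5% in either direction), with a median of -0.12. The count of 40 was 26 without dry replicate 3, 24 with DESeq2 and 74 with the spread taken from only the groups compared, and the count of 20 was 11 without 22 DAP replicate 3.

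Some members stood higher in the double mutant at 22 DAP than in dry abi3-6. XTH31 was at 238, 149 and 253 CPM there and at 18.2, 21.6 and 16.3 CPM in dry seed of the same line, a fall of log2 -3.42 ± 0.54 (edgeR adjusted p = 4.36e-06). CP1, a cysteine protease, was at 1616.8, 1217.9 and 1666.6 CPM and then at 190, 224 and 183 CPM (log2 -2.83 ± 0.48, adjusted p = 4.9e-06). Relative to dry abi3-6, the 22 DAP means of the double mutant were 1336.5% for XTH31, 670% for CP1, 627% for GLL22 and 385% for IGMT5. These percentages differ in stage as well as in line. In abi3-6 of batch A, XTH31 was at a mean of 129 CPM at 20 DAP and 19.5 CPM at 22 DAP. GLL22 was at 532 and 113 CPM there. The double mutant's 22 DAP means were 213 CPM for XTH31 and 742 CPM for GLL22. The 24 DAP libraries of the double mutant were unlike each other. CP1 was at 59.4, 79.0 and 280 CPM and PYK10 at 650, 2373.2 and 3836.0 CPM in replicates 1, 2 and 3.

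Not all abi3-6 transcripts appeared in the double mutant. Against abi3-12 dog1-4 at 24 DAP, 165 members were higher in abi3-6 and 2 were lower (23.1% and 24.5% of all genes, 47.6% in either direction), with a median log2 fold change of 2.03 against 0.00. The count was 155 without replicate 1 of the double mutant, the small library, and 179 without replicate 3. The 23 photosynthesis members were all higher in abi3-6, and 11 of 12 glucosinolate and flavonoid members were, with class medians of 1.73 and 5.57. Of tested genes of these classes that were not members, 104 of 200 and 18 of 45 were higher, and 46 of 153 for glycosyl hydrolases. Among the beta-glucosidases and other glycosyl hydrolases 4 of 8 were higher, and the tests of PYK10 (log2 0.82, adjusted p = 0.3) and NAI2 (log2 0.45, adjusted p = 0.281) did not pass. A test that did not pass does not show equal levels, and the wide spread of the double mutant at 24 DAP limits these comparisons. The abi3-6 side again stood near the dry level that chose the members.

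Genes of the pigment branch were high in abi3-6 and low in the other late groups. LDOX, which makes anthocyanidins, was at 94.4, 138 and 127 CPM in dry abi3-6 and at 0.509, 0.69 and 1.2 CPM in dry abi3-12 dog1-4. PAP1 was at 13.0, 28.6 and 21.9 CPM in dry abi3-6. Its largest mean in a line other than abi3-6 and Col-0 was 1.04% of that level. DFR, the enzyme before LDOX, went from 42.7, 44.6 and 59.6 CPM to 3.02, 1.15 and 6.66 CPM in abi3-12 dog1-4 between 18 and 22 DAP (log2 -4.31 ± 0.29, edgeR adjusted p = 5.43e-21), while in abi3-6 it stood at 263, 425 and 329 CPM in dry seed. Col-0 also held up to 20.5 CPM of DFR in a group mean. At 24 DAP it was higher in abi3-6 than in abi3-12 dog1-4 (log2 7.45 ± 0.34, adjusted p = 6.21e-29). In dry abi3-12 dog1-4 the median glucosinolate and flavonoid member was at 3.52% of its dry abi3-6 level, against 33.1% for photosynthesis, 50.6% for lectins and 79.8% for glycosyl hydrolases.

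**Figure D5:**
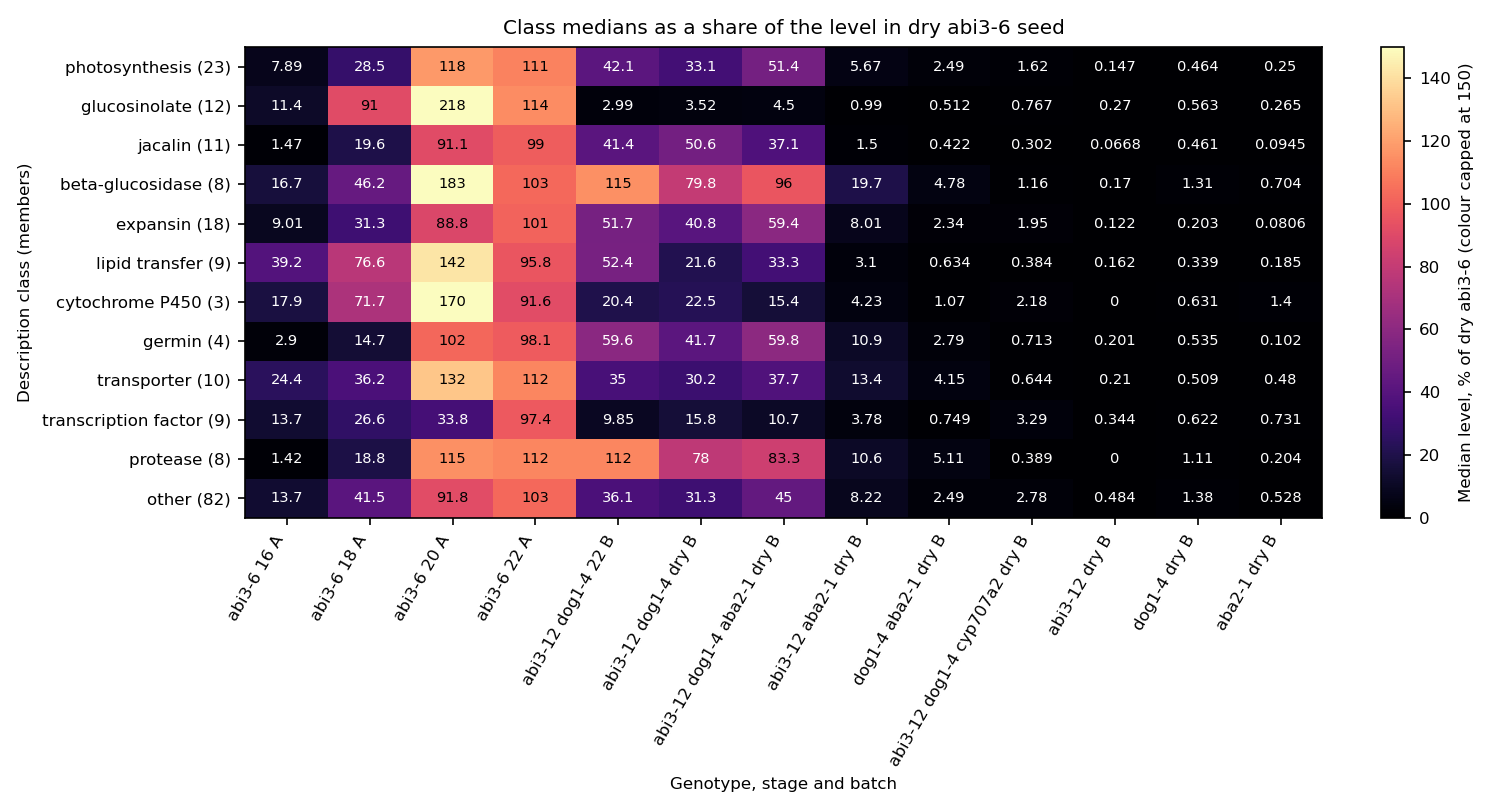
Median level of each description class with at least 3 members, named by the first term of its description, as a percentage of the level in dry abi3-6 (colour capped at 150), in 13 groups. In dry abi3-12 dog1-4 the medians range from 3.52% for glucosinolate and flavonoid genes to 79.8% for glycosyl hydrolases, and in dry abi3-12 none of the medians shown exceeds 0.484%.

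Several other members were low outside abi3-6. The major facilitator family gene AT4G04750 and the myrosinase-binding protein gene MBP1 had no count in any library of the lines other than abi3-6, Col-0 included. For AT4G08570, a heavy metal transport and detoxification family protein, the largest mean in a line other than abi3-6 and Col-0 was 0.0909% of its dry abi3-6 level. BGLU18 was at 94.6, 73.1 and 70.2 CPM in dry abi3-6, at 0.872, 0.844 and 0.658 CPM in dry abi3-12 dog1-4 and at 0 in all dry libraries of abi3-12, dog1-4 and aba2-1. ELIP1 was at 1194.0, 1079.0 and 1294.8 CPM in dry abi3-6 and at 30.7, 33.7 and 34.5 CPM in dry abi3-12 dog1-4. Its largest Col-0 mean, 72.7 CPM, was higher than the latter. P5CS1, which catalyses the first step of proline synthesis, was at 986, 1639.4 and 1435.7 CPM and at 33.4, 29.3 and 30.4 CPM in these lines.

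Most members were lower where cyp707a2 was added to the double mutant. In dry seed 175 of 200 were lower in abi3-12 dog1-4 cyp707a2 and none was higher (34.3% and 28.0% of all genes, 62.4% in either direction, unadjusted p under 0.05 for 176 in either direction), with a median log2 fold change of -3.87 against -0.04. At 22 DAP 168 were lower and 1 was higher (36.0% and 31.9% of all genes, 67.9% in either direction), with a median of -4.22 against -0.03. In this triple mutant 45 members had no count in dry seed and 56 had none at 22 DAP, so the sizes of these medians may depend on the prior count. Libraries did not overlap for 174 members lower in dry seed and 168 at 22 DAP, but the share of all genes without overlap was not counted. PYK10 was at 8.78, 18.7 and 39.0 CPM in the dry triple mutant, against the 3450.9 to 4143.7 CPM of the double mutant (log2 -7.08 ± 0.84, edgeR adjusted p = 5e-11). NAI2 was at 22.6, 28.9 and 46.5 CPM (log2 -4.44 ± 0.39, adjusted p = 1.09e-15) and BGLU21 at 0.33, 2.19 and 2.29 CPM, each clear of the double mutant. BGLU22 was at least 825-fold, JAL31 at least 159-fold and JAL22 at least 121-fold lower.

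All 18 wall members, 11 of 11 lectins, 8 of 8 proteases, 21 of 23 photosynthesis members and 5 of 12 glucosinolate and flavonoid members were lower in the dry triple mutant. Of tested genes of these classes that were not members, 141 of 372, 36 of 96, 154 of 369, 135 of 200 and 15 of 45 were lower. The ER body list followed, with 11 of 11 tested genes lower at both stages and a summed level of 38.9 to 106 CPM in dry seed. The triple mutant did not reach the low level of abi3-12. Its summed member share in dry seed was 0.217% to 0.262% by library, against 0.0931% to 0.105% in abi3-12, and no test was made between these lines. Of the seed maturation genes 11 of 12 were higher in the dry triple mutant, with a summed level of 66294.4 to 72445.8 CPM.

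Many members were also higher where aba2-1 was added to the weak allele. In dry seed 143 of 200 were higher in abi3-12 aba2-1 than in abi3-12 and 2 were lower (25.9% and 23.5% of all genes, 49.4% in either direction), with a median log2 fold change of 3.51 against 0.00. As 74 members had no count in dry abi3-12, the size of this median may depend on the prior count. PYK10 was at 1048.6, 858 and 773 CPM, above every abi3-12 library and below every abi3-12 dog1-4 library (log2 8.71 ± 0.96 against abi3-12, edgeR adjusted p = 1.53e-11). BGLU21 was at 141, 103 and 90.1 CPM, at least 494-fold higher than in abi3-12, and AT5G26260 at 51.2, 38.6 and 34.3 CPM, at least 183-fold higher. The photosynthesis class was called higher for 21 of 23 members, the proteases for 6 of 8, the lectins for 7 of 11 and the transcription factors for 4 of 9. Of tested genes of these classes that were not members, 110 of 200, 110 of 369, 27 of 96 and 221 of 1068 were higher. The 2 members lower were AT3G60930, an uncharacterized gene, and ELIP1. AT3G60930 was at 63.5, 70.0 and 66.5 CPM in abi3-12 and at 6.52, 6.71 and 6.24 CPM in abi3-12 aba2-1 (log2 -3.67 ± 0.25, adjusted p = 6.64e-19), and 26.1% of its 50-base stretches also occur elsewhere in the genome's genes.

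With DOG1 already lost, the further loss of ABA2 moved fewer members. In dry seed 57 were higher and 3 lower in abi3-12 dog1-4 aba2-1 than in abi3-12 dog1-4 (6.45% and 6.84% of all genes, 13.3% in either direction), with a median log2 fold change of 0.40 against 0.00. The count of higher members was 107 when the spread was estimated from these 6 libraries alone. Photosynthesis and wall members made up 10 each of those higher. Of tested genes of these classes that were not members, 48 of 200 and 39 of 372 were higher. PORA, the protochlorophyllide oxidoreductase of dark-grown seedlings, was at 23.8, 21.2 and 19.0 CPM in the double mutant and at 211, 171 and 191 CPM in the triple mutant (log2 3.24 ± 0.3, edgeR adjusted p = 5.24e-09). The triple mutant's libraries overlapped the 105, 176 and 157 CPM of dry abi3-6. The carbonic anhydrase CA2 was at 0.363, 0.383 and 0.359 CPM against 13.0, 12.6 and 7.91 CPM (log2 4.94 ± 0.62, adjusted p = 0.000136), with no overlap. All 11 light harvesting genes, none of them members, were higher too.

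The ER body genes did not follow in this comparison. None of the 11 tested genes passed in either direction, and PYK10 was at 3638.2, 3668.2 and 3595.6 CPM in the triple mutant, within the range of the double mutant (log2 0.01 ± 0.64, edgeR adjusted p = 1). TGG2, the myrosinase of phloem-associated idioblasts, was lower, at 32.4, 33.2 and 32.1 CPM against 65.8, 56.9 and 59.1 CPM (log2 -0.82 ± 0.26, adjusted p = 0.0265). AT3G60930 (log2 -0.65, adjusted p = 0.0304) and IGMT5 (log2 -0.64, adjusted p = 0.0414) were the other members lower. These 3 calls were not stable. With any single library left out 0 or 1 members were lower, DESeq2 gave 1, and the fit of only these groups gave 26.

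The difference between these 2 effects of aba2-1 was tested itself, by an interaction term. It was negative for 129 members and positive for 4, where 21.3% of all genes had a negative and 15.6% a positive term, 36.9% in either direction. The negative terms mean a smaller rise, or a larger fall, where dog1-4 was already present.

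In lines labelled with no abi3 allele the members were low, although both mutations together moved many of them. Comparing dry dog1-4 aba2-1 with dog1-4, 79 members were higher and 1 lower (9.43% and 8.80% of all genes, 18.2% in either direction, median log2 fold change 1.00 against 0.00). Without replicate 1 or replicate 3 of dog1-4 the count fell to 48 and 52. Comparing dog1-4 aba2-1 with aba2-1, 115 were higher and 4 lower (17.2% and 15.5% of all genes, 32.7% in either direction, median 1.77 against 0.00). Both comparisons share the dog1-4 aba2-1 libraries. PYK10 was at 59.4, 88.6 and 76.1 CPM in dog1-4, at 56.6, 48.6 and 10.4 CPM in aba2-1 and at 255, 328 and 271 CPM in the double mutant (log2 1.93 ± 0.66 against dog1-4, edgeR adjusted p = 0.0331, and 2.73 ± 0.69 against aba2-1, adjusted p = 0.00138). NAI2 was at 63.5, 76.7 and 62.8 CPM in the double mutant, above 17.5, 31.1 and 18.8 CPM in dog1-4. Rises against aba2-1 included the wall proteins GRP-3, at least 10.9-fold, and XTH4, at least 4.86-fold. Their means in dog1-4 aba2-1 were only 2.71 and 1.21 CPM, against 193 and 39.9 CPM in dry abi3-6. ELIP1 was lower in dog1-4 aba2-1 in both comparisons, though against dog1-4 its adjusted p was 0.109 without replicate 2 of dog1-4 aba2-1, 0.0568 without dog1-4 replicate 1 and 0.0579 without dog1-4 replicate 3 (edgeR). The libraries stood at 0.506, 0 and 0.274 CPM against 2.0, 1.26 and 1.92 CPM in dog1-4 and 2.38, 3.34 and 2.31 CPM in aba2-1. HB-7, an ABA-responsive homeodomain factor, was lower than in aba2-1 as well (log2 -1.39 ± 0.33, adjusted p = 0.000735).

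Of genes outside the list, those whose 43 group means followed the members' mean log2(CPM + 1) most closely were AT4G22810, an AT-hook family protein (Pearson r = 0.983), AT2G12646, a PLATZ family protein (r = 0.981), and AT3G03980 (r = 0.98), at ranks 290, 644 and 629 by the log2 ratio. These coefficients describe 43 group means that share libraries and genotypes. Scaling bears on all counts above. With library totals in place of the trimmed mean factors, the median change of all genes moved by up to 0.5 on the log2 scale, and among called genes the higher share moved from 56% to 77.5% when dog1-4 was added to dry abi3-12, from 52.8% to 73.8% at 22 DAP, from 44.9% to 23.5% when cyp707a2 was added in dry seed and from 47% to 26.7% at 22 DAP. For aba2-1 added to dry abi3-12 it moved from 52.4% to 80.9%, for aba2-1 added to abi3-12 dog1-4 from 48.5% to 30%, and for dog1-4 added to aba2-1 from 52.5% to 77%. In the courses it moved from 50.2% to 71.1% (abi3-12 dog1-4 from 18 to 22 DAP), from 53.5% to 39.3% (22 DAP to dry), and in abi3-6 from 43.4% to 71.7%, from 50.4% to 73% and from 53.6% to 35.4% over its 3 steps. For abi3-6 against abi3-12 it moved from 54.8% to 67.4%, and with relative log expression factors it moved from 48.5% to 59.5% for abi3-6 against abi3-12 dog1-4.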

How the data were processed

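Gene counts of 123 libraries were analysed as the authors deposited them, as whole-number raw counts per gene and sample. The submitters' processing notes name TAIR10, HISAT2 2.1.0, StringTie 1.3.2, Cufflinks and SAMtools without their roles, and the counting program is not given in the sources used here. Per the labels, libraries were strand-specific and made from polyadenylated RNA. Symbols and descriptions came from RefSeq (TAIR10.1), which matched 37051 of 37336 gene IDs and all 200 members.

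CPM printed in the text is the count over the library total. Tests used edgeR 4.0.16 in R 4.3.3 (glmQLFit and glmQLFTest, 1 coefficient per group, each batch fitted alone) with TMM factors, after a filter on low counts (filterByExpr, minimum count 10). All 200 members passed it in batch B and 198 in batch A, partly through the abi3-6 libraries themselves. P-values were adjusted by Benjamini and Hochberg over all genes tested (20912 in batch B, 20414 in batch A). For a group with at most 3 counts in every library, a fold change is given as a lower bound against 3 counts per library. The size of a fitted log2 fold change against such a group depends in part on edgeR's prior count, which may also shift medians over members. Contrasts with Col-0 or dry abi3-6 were not tested, because those libraries chose the members.

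Alternatives were DESeq2 1.42.0, other scaling factors, no filter, only the groups compared, a replicate block and leaving out each library, which kept the filter and trended dispersion of the full fit. The scripts were tested on simulated data. The members and lists were chosen with earlier results of these data known, and the keywords of the description classes were refined with the members in view. Genes named in the text were those highest in the ranking, at its limit, on the marker lists, with the largest changes in a comparison, most abundant in their class, or highest or lowest outside abi3-6. A few others (CYP79B3's neighbours in rank, NAI1, PORA, DFR, LDOX, ELIP1, BGLU18, P5CS1 and HB-7 in some comparisons) were shown after their values were seen.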

Additional observations from a re-analysis of the deposited data

Results flagged for a closer look

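The effect of aba2-1 in dry seed differed between abi3-12 and abi3-12 dog1-4 for many members, by an interaction term fitted with edgeR over all genes. The term was negative for 129 of 200 members, a smaller rise or a larger fall where dog1-4 was already present, and positive for 4, where 21.3% of all genes had a negative and 15.6% a positive term. The members' median term was -3.21 on the log2 scale, against -0.05 over all genes. With library totals as the scaling, the positive share among all called genes moved from 42.3% to 9.68%.

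The most negative terms were those of AT5G26260 (-11.36 ± 1.64 SE, edgeR adjusted p = 1.06e-06), AT3G20370 (-10.47 ± 1.27, adjusted p = 1.06e-08) and BGLU22 (-10.47 ± 1.72, adjusted p = 1.52e-05). AT5G26260 and BGLU22 were at 0 in abi3-12, so the size of their terms depends on the prior count. PYK10 had a term of -8.7 ± 1.12 (adjusted p = 6.53e-09), and 9 of the 11 tested ER body genes had a negative one. Positive terms were found for AT3G60930 (3.02 ± 0.33, adjusted p = 5.73e-11), ELIP1 (2.11 ± 0.48, adjusted p = 0.000335) and TEM1, a repressor of flowering (1.48 ± 0.37, adjusted p = 0.000946).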

How the results depend on the processing

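For counts of members in the main direction of each comparison, 94 alternative values stayed within 1.5 times the reported count and 3 did not. Counts were compared within a direction, so whether the balance of directions reversed was not checked. For counts in the other direction, many of them of 0 to 8 members, 77 stayed and 20 did not. With single libraries left out, 93 and 3 did so in the main direction and 73 and 23 in the other. Estimating the spread from only the groups compared gave 107 higher members for aba2-1 added to abi3-12 dog1-4 (57 reported) and 74 lower for abi3-12 dog1-4 from 22 DAP to dry (40 reported), where DESeq2 gave 24. Leaving out single libraries gave 26 to 38 lower members in that step (26 without dry replicate 3) and 48 to 80 higher for aba2-1 added to dog1-4 (48 without dog1-4 replicate 1, 52 without replicate 3, 79 reported). It gave 155 to 179 higher for abi3-6 against abi3-12 dog1-4. For named members 424 alternative values kept their call and 24 lost it, and with single libraries left out 414 kept it and 36 lost it. Choosing members against Col-0 of batch B alone shared 106 of the 200, and leaving out a dry abi3-6 library shared 191 to 195. Replicate numbers did not pair the samples (in 0 of 15 comparisons was every pair's correlation over 0.1). With a replicate block 183 members were higher for dog1-4 added to dry abi3-12 and 174 lower for cyp707a2 added in dry seed. A crossed block for abi3-6 from 20 to 22 DAP, chosen after seeing the data, gave 79 higher and 57 lower. Depth limits members near 0 in both groups, and the abi3-6 course has 2 libraries per stage.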

Other observations

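Lists of other cell types that each hold 1 member (PP2-A1 for phloem, TGG2 for myrosin cells) differed in level, in part through the choice of members. Phloem genes summed to 224 to 236 CPM in dry abi3-6 and 4.01 to 6.93 CPM in dry Col-0, and myrosin cell genes to 855 to 958 CPM and 115 to 130 CPM. Of the ER body list, JAL23 had no count in dry abi3-6 and MEB2 was at 4.52 CPM on average. AT2G34930 was higher in dry abi3-12 dog1-4 aba2-1, at a mean of 77.3 CPM, than in dry abi3-6, where that mean was 426% of its level.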
